A study of Caenorhabditis elegans with 2 samples.

Results

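The epithelial junction and polarity genes described here were 10 of the 19973 protein-coding genes on the nuclear chromosomes of Caenorhabditis elegans. They were ajm-1, dlg-1, let-413, hmr-1 and hmp-1 of the cell junctions, par-3, par-6 and pkc-3 of the PAR polarity complex, and spc-1 and erm-1 of the membrane skeleton. The genes were listed by name and in part selected on measured values, since ajm-1, spc-1 and pkc-3 were included for having a peak summit in a promoter window in these same data. Counts of these genes with a peak are therefore descriptions, and no test was made on them. For each gene, every peak that overlapped the gene or the 2 kb on either side was taken from 8 deposited peak lists. ChIP-seq, which maps the DNA bound by a precipitated protein, was performed on whole young adult worms at 64 hours in 2 biological replicates. All worms were of strain RW12178, in which GFP and a loxP-flanked copy of unc-119(+) stand at the lin-26 locus, an insertion made with CRISPR and named st12178, in an unc-119(tm4063) III background. An anti-GFP antibody served for the precipitation, per the description in the labels, although their antibody field reads lin-26. There was 1 group and no other strain, stage or treatment, and peaks from whole animals do not say in which cells the protein was bound.

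The transcription factor LIN-26, of the zinc-finger class, specifies and maintains epidermal and other epithelial cells in C. elegans. The worm's epithelial cells are held together at an apical junction with a cadherin and catenin complex and, below it, a complex of DLG-1 and AJM-1. The PAR proteins set up the apical side, LET-413 keeps the junction proteins in place, and spectrin and ERM proteins tie the membrane to the cytoskeleton.

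Peaks passed the list threshold near ajm-1, spc-1, pkc-3 and dlg-1, and near hmp-1 in 1 of the lists of both replicates, the one deposited as conservative. The sequences under 7 of these summits are shown because they differ in kind, some lying in tRNA genes and some in an intron or upstream sequence of the gene itself. Those of the 4 summits in the neighbouring genes mai-1 and prdx-2 are not shown. Each is 151 bases long with the summit in the middle, in the direction of the named gene, 5′ to 3′, from the RefSeq sequence of WBcel235, the assembly called ce11 in the deposited lists. Both strong ajm-1 summits lay in introns and inside genes for tRNA-Gln, the transfer RNA that carries glutamine, and the capitals mark the tRNA gene. The upper sequence is chrX:9091532-9091682 and holds H08J11.t3 on the minus strand. The lower sequence is chrX:9090757-9090907 and holds H08J11.t1 on the plus strand.
ajm-1 strongest peak: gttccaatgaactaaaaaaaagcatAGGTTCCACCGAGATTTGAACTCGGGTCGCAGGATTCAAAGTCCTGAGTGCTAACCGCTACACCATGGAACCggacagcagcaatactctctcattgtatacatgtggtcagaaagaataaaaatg
ajm-1 middle peak: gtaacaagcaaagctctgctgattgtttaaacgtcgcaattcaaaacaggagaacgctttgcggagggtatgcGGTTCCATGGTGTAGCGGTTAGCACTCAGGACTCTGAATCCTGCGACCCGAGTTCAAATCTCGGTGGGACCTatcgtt
The weakest ajm-1 peak, at chrX:9102318-9102468, lay in an intron with no tRNA gene within 500 bp.
ajm-1 weakest peak: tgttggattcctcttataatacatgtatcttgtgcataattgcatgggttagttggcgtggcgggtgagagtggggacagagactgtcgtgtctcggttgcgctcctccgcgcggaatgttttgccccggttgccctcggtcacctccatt
The dlg-1 summit at chrX:5485675-5485825 lay beyond the 3′ end of the gene and inside C25F6.t3, a gene for tRNA-Met, which is in capitals.
dlg-1 downstream peak: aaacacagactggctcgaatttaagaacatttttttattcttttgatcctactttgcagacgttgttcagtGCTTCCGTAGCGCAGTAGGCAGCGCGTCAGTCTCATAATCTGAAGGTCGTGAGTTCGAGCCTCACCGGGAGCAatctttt
The spc-1 sequence, chrX:3127747-3127897 on the minus strand, lay upstream of the gene and outside all annotated genes.
spc-1 upstream peak: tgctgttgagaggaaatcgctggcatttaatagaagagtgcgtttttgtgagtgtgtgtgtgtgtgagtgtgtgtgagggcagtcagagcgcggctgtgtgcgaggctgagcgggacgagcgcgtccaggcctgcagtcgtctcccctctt
The pkc-3 sequence, chrII:5379676-5379826 on the plus strand, also lay upstream and outside all annotated protein-coding genes, and its capitals mark matches to a GA repeat and a GC box on the opposite strand.
pkc-3 upstream peak: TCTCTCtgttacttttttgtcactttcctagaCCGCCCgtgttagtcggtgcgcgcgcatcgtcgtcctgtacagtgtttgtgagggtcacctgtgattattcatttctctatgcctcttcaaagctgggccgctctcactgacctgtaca
The hmp-1 sequence, chrV:11844855-11845005 on the plus strand, lay upstream of the gene.
hmp-1 upstream peak: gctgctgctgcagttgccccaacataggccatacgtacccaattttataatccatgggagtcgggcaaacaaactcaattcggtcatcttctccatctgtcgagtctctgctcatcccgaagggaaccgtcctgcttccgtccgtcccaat

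In the main list, the longer thresholded list of both replicates, 4 of the 10 genes had a peak in the gene or within 2 kb, against 19.1% of all protein-coding genes. Because the rule for the gene set used this list, nothing is read from the difference. The genes are also long, with a median span of 6937.5 bp against 2027 bp over all protein-coding genes. Of the 4228 genes at least as long as pkc-3, the shortest of the 10 at 4143 bp, 26.8% had a peak. The list deposited as conservative, also of both replicates, is shorter, with 2653 nuclear peaks, but it has the same lowest score of 830 and holds 375 peaks that the main list does not. It held peaks at 5 of the 10 genes, hmp-1 being the addition, against 16.9% of all genes. Replicate 1's own list had peaks at 4 of them, against 8.38% of all genes. Replicate 2's own list had peaks at 4 as well, against 13.4% of all genes. The same 4 genes, ajm-1, spc-1, pkc-3 and dlg-1, made up the count in the main list and in each replicate. The lists share reads, so they are not independent of each other.

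The main list gave these 4 genes 9 peaks among its 3187 nuclear peaks. Each peak carries a signal that the authors' peak caller gave relative to the control, and since it is not scaled between lists it is read here by rank and percentile within a list. The signals ran from 18.2 to 303 with a median of 154, against a median of 112 over all nuclear peaks of the main list. Only 5 of the 9 summits were closer to a 5′ end of the member gene than to that of any other gene, and 3 of the 9 lay within 500 bp of a tRNA gene, against 453 of all 3187. With both limits applied, 3 peaks remained, the weakest at ajm-1, the one upstream of spc-1 and the one upstream of pkc-3. The 9 peaks include the promoter summits for which ajm-1, spc-1 and pkc-3 were included. Neither their median signal nor their tRNA share is therefore read against that of all peaks.

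**Figure D1:**
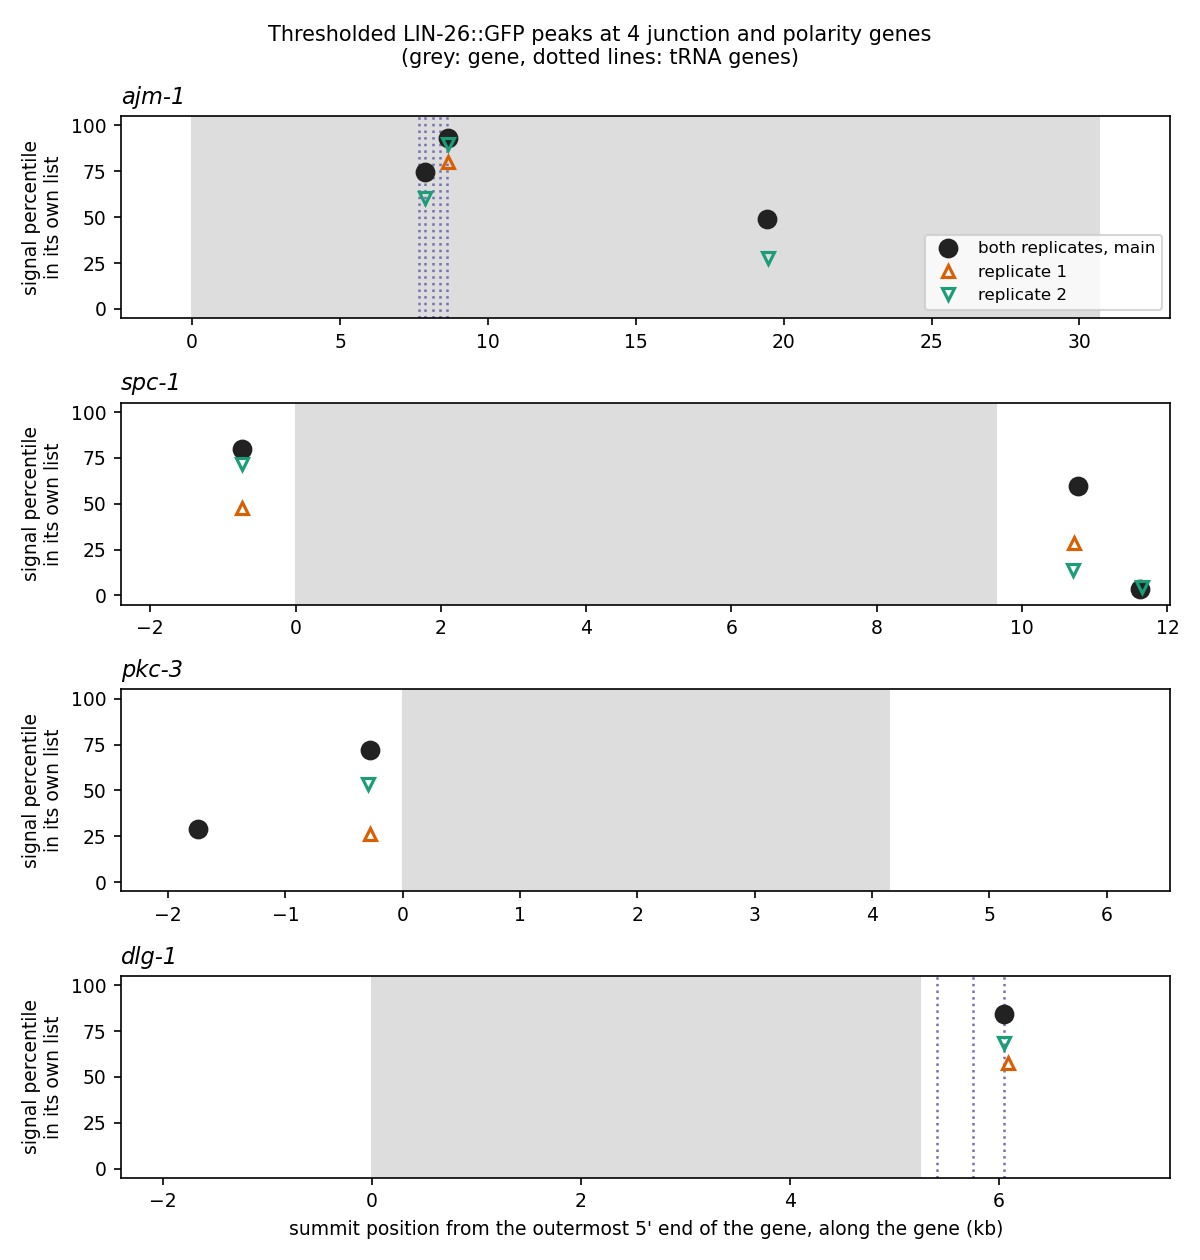
Summits of thresholded peaks along ajm-1, spc-1, pkc-3 and dlg-1, in kb from the outermost 5′ end of the gene (horizontal axis) against the percentile of the peak's signal in its own list (vertical axis). Grey marks the gene, dotted lines tRNA genes, black points the main list, orange triangles replicate 1 and green triangles replicate 2. The strongest ajm-1 peak, at percentile 93.3, the middle one, at percentile 74.8, and the dlg-1 peak, at percentile 84.2, stand on tRNA genes.

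ajm-1 encodes a coiled-coil protein of the apical junction and had the strongest peak of the set. The gene covers chrX:9082946-9113619 on the plus strand and has 14 annotated 5′ ends. At chrX:9091516-9091692 the signal was 303 in the main list, rank 213 of 3187. In replicate 1 it was 117, rank 237 of 1191 peaks. In replicate 2 it was 180, rank 214 of 2083 peaks. The summit was the same base, 9091607, in both replicates and in the main list. The summit lay 8661 bp inside the gene and at −678 bp from an internal 5′ end at 9092285, where the minus sign means upstream, so it counted as a promoter summit through that internal end only.

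The tRNA gene under this summit is 1 of 5 tRNA-Gln genes within ajm-1. The middle peak, chrX:9090802-9090889, had its summit 2 bp inside H08J11.t1, and the strongest 21 bp inside H08J11.t3. The middle peak had a signal of 163 in the main list, rank 803. Replicate 2 gave it 99.7, rank 827, and replicate 1's own list did not hold it. In replicate 1's ranked list, which holds peaks before any threshold, the same place had a signal of 62.4 but a global irreproducible discovery rate (IDR) of 0.402. The IDR is an estimate of the share of peaks at that rank or better that would not repeat between the inputs compared, so a low value means a repeatable peak. Both replicates' own lists thus held the peak at H08J11.t3 and only that of replicate 2 the peak at H08J11.t1. At H08J11.t3 the IDR was 6.21e-05 in replicate 1 and 4.21e-05 in replicate 2.

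The main ranked list held no peak over H08J11.t2, H08J11.t4 or H08J11.t5, although the genes are nearly identical. In each replicate's ranked list, the broader peak at H08J11.t1 also reached H08J11.t5. H08J11.t3, H08J11.t4 and H08J11.t5 have the same sequence, which 15 annotated tRNA genes share in all. With positions counted from 1 at the 5′ end of H08J11.t3, H08J11.t1 differs from it by T34C and A68G, and H08J11.t2 by G63A. H08J11.t1 has the sequence of 5 tRNA genes in all, and that of H08J11.t2 occurs once. Of the 50-base stretches in the 151-base windows, 70.6% at the strongest and 69.6% at the middle ajm-1 summit occur once in the genome. Reads from a repeated stretch cannot be placed on 1 copy by sequence alone, so how the signal divides among copies is uncertain. How such reads were placed was not given in the sources used here, and their part in these signals was not tested.

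**Figure D2:**
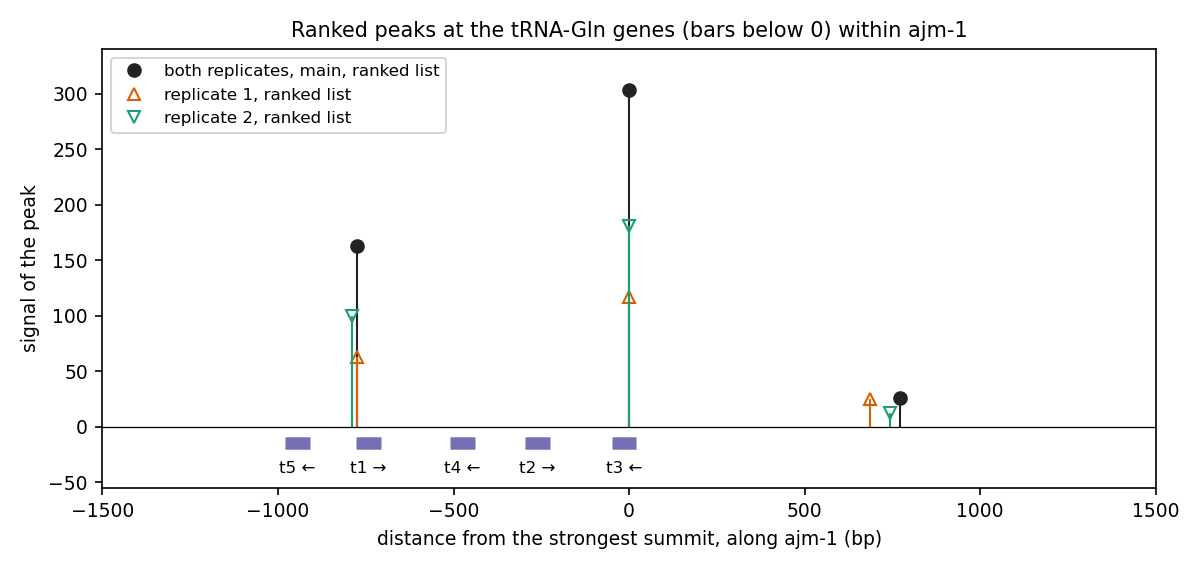
Signal of ranked peaks (vertical axis, each list on its own scale) against distance from the strongest ajm-1 summit in bp (horizontal axis), with the 5 tRNA-Gln genes as bars below 0 and arrows for their direction. Black points are the main ranked list, orange triangles replicate 1 and green triangles replicate 2. Peaks stand at t3 and t1, with signals of 303 and 163 in the main list.

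The third ajm-1 peak, chrX:9102225-9102560, lay in an intron at −1369 bp from the nearest ajm-1 5′ end. Its signal was 111 in the main list, rank 1630, which is close to the middle of that list. Replicate 2 gave 70.2, rank 1509 of 2083. Replicate 1 had only a ranked peak with a signal of 26.8 and an IDR of 0.724, and the conservative list did not hold it. Of the replicates' own thresholded lists, only that of replicate 2 held the peak. Of the 14 annotated 5′ ends of ajm-1, none had a main-list summit in its promoter window without a tRNA gene within 500 bp.

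dlg-1 encodes the worm homologue of Discs large, a scaffold protein that binds AJM-1. Its only main-list peak, chrX:5485582-5485917, had a signal of 216, rank 505. Replicate 1 gave 84.8, rank 506, and replicate 2 gave 114, rank 657. The replicate 1 summit stood 33 bp from the main summit and the replicate 2 summit on the same base. Both replicates' own lists held the peak, with an IDR of 0.000410 in replicate 1 and 0.000245 in replicate 2. However, the main-list summit lay 809 bp past the 3′ end of dlg-1. The nearest 5′ end was that of C25F6.1, with the summit at −737 bp from it. It was 4 bp inside C25F6.t3, 1 of 3 tRNA-Met genes within 2 kb of dlg-1, whose sequence 9 tRNA genes share. In the 151 bases shown above, 67.6% of 50-base stretches occur once in the genome. No ranked peak of the main list overlapped C25F6.t2, and the 1 over C25F6.t1 had an IDR of 0.532. No thresholded peak of any list lay in dlg-1 itself or upstream of it.

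The remaining junction genes had no peak in the main list. hmp-1, which encodes the worm's alpha-catenin, had a peak in the conservative list at chrV:11844762-11845097, with its summit at −941 bp from the gene's outermost 5′ end and a signal of 97.4, rank 2002 of 2653. The IDR of this peak was 0.00734 in the conservative ranked list, 0.0578 in the main ranked list, 0.0457 in replicate 1 and 0.635 in replicate 2. The inclusion of hmp-1 therefore depended on the list, and the IDR was lower in replicate 1 than in replicate 2. A non-coding RNA gene, R13H4.11, lay within 500 bp of the summit, and no tRNA gene did.

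hmr-1 encodes the worm's classical cadherin and, at 58913 bp, is the longest of the 10. It held 74 ranked peaks in the main ranked list, the best of them in an intron with a signal of 74.5 and an IDR of 0.0735. The best IDR was 0.0262 in the conservative ranked list, 0.159 in replicate 1 and 0.152 in replicate 2. Those of the replicates belonged to different places in the gene, at 11115389 in replicate 1 and 11096050 in replicate 2. The replicate 1 peak was near the floor, with a signal of 3.06 at rank 55007 of 55940. At the place of the best peak of the main ranked list, both replicates had a ranked peak. Its signal was 36.5 in replicate 1, with an IDR of 0.283, and 39.9 in replicate 2, with an IDR of 0.288. let-413, the worm homologue of Scribble, had a best main-list IDR of 0.0348 in its coding sequence, with a signal of 63.9. In the conservative ranked list its best peak was another, upstream at −1218 bp, with an IDR of 0.0427. The best let-413 IDR was 0.465 in replicate 1 and 0.188 in replicate 2.

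Among the PAR genes, pkc-3, which encodes atypical protein kinase C, was the one with a thresholded peak. The upstream peak, chrII:5379583-5379918, had its summit at −276 bp from the 5′ end of pkc-3. Its signal was 154 in the main list, rank 889, against 63.5 in replicate 1, rank 880, and 91.2 in replicate 2, rank 965. Replicate 1 placed the summit at −277 bp and replicate 2 at −294 bp. The IDR was 0.00511 in replicate 1 and 0.000938 in replicate 2. The annotated non-coding RNA gene F09E5.22 lay within 500 bp and no tRNA gene did. Of the promoter summits at the 10 genes, this was the closest to a 5′ end.

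A second pkc-3 peak, chrII:5378115-5378450, lay at −1744 bp from pkc-3 but 88 bp from the 5′ end of prdx-2, the peroxiredoxin gene next to it, in a prdx-2 intron. Its main-list signal was 94.8, rank 2266, and neither replicate's own list held it. With an IDR of 0.00769 it was the last of the 9 peaks to pass the main list's threshold of about 0.01. The conservative list held a different peak between these places, chrII:5378904-5379239, at −955 bp from pkc-3 and in the coding sequence of prdx-2, with a signal of 77.5. That summit stood in the promoter window of pkc-3. The peak's IDR was 0.00738 in the conservative and 0.0155 in the main ranked list, and 0.0256 in replicate 2. In replicate 1 the overlapping ranked peak had its summit 106 bp further upstream and an IDR of 0.687.

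par-6 and par-3 encode the PDZ-domain partners of PKC-3. The best par-6 peak, chrI:12676103-12676438, missed the main threshold narrowly with an IDR of 0.0116 and a signal of 77.7. Its summit lay 6891 bp from the outermost 5′ end, past the 3′ end of a gene of 5070 bp. The best par-6 IDR in replicate 1 was 0.562, at a peak in the coding sequence. Replicate 1's ranked list held no peak that overlaps the one past the 3′ end. In replicate 2 the best IDR was 0.266, at a peak that does overlap it. par-3 had 20 ranked peaks in the main ranked list and a best IDR of 0.103, in coding sequence near its 3′ end. The best par-3 IDR was 0.0386 in the conservative ranked list, at the neighbouring gene F54E7.9, 0.580 in replicate 1 and 0.141 in replicate 2. Neither gene had a peak past the threshold in any list.

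spc-1, the alpha-spectrin gene, covers chrX:3117439-3127079 on the minus strand and had 3 main-list peaks, of which the strongest lay upstream of it. That peak, chrX:3127654-3127989, had its summit at −743 bp from the 5′ end, outside annotated genes and with no tRNA or other annotated non-coding gene within 500 bp. Its signal was 190 in the main list, rank 634, with 76.5 in replicate 1, rank 625, and 122 in replicate 2, rank 588. The summit was base 3127822 in both replicates. Among the 10 genes this was the strongest peak away from tRNA genes and nearest to a 5′ end of the gene itself.

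The other spc-1 peaks lay past its 3′ end, at mai-1, which encodes a mitochondrial ATPase inhibitor. The peak chrX:3116148-3116483 had a signal of 126 in the main list, rank 1284, with 64.3 in replicate 1 and 60.9 in replicate 2. Its summit was 1123 bp past spc-1 and 273 bp from the 5′ end of mai-1, in the 5′ UTR. The peak chrX:3115290-3115625, 1981 bp past spc-1, had a signal of 18.2, rank 3078 of 3187, yet the highest possible score of 1000 and an IDR of 0.00262. Replicate 2 also held it low in its list, with 22.8 at rank 1986 of 2083. Replicate 1 had a ranked peak 139 bp away with an IDR of 0.210. The main-list summit lay in coding sequence of mai-1, 120 bp from an annotated mai-1 5′ end, which was the nearest. It stood in promoter windows of both mai-1 and gpd-2, a gene for the glycolytic enzyme GAPDH.

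erm-1, the worm's ezrin, radixin and moesin gene, had the weakest evidence of the 10. Its best IDR was 0.167 in the main ranked list, at a summit in its 3′ UTR and at −261 bp from the neighbouring gene dnj-4. The best value was 0.498 in the conservative ranked list and 0.385 in replicate 2. Replicate 1's ranked list of 55940 nuclear peaks held none in the gene or within 2 kb. Over the 10 genes, ranked peaks stood at a median of 1.22 per kb in the main ranked list, against 1.08 per kb over all protein-coding genes.

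**Figure D3:**
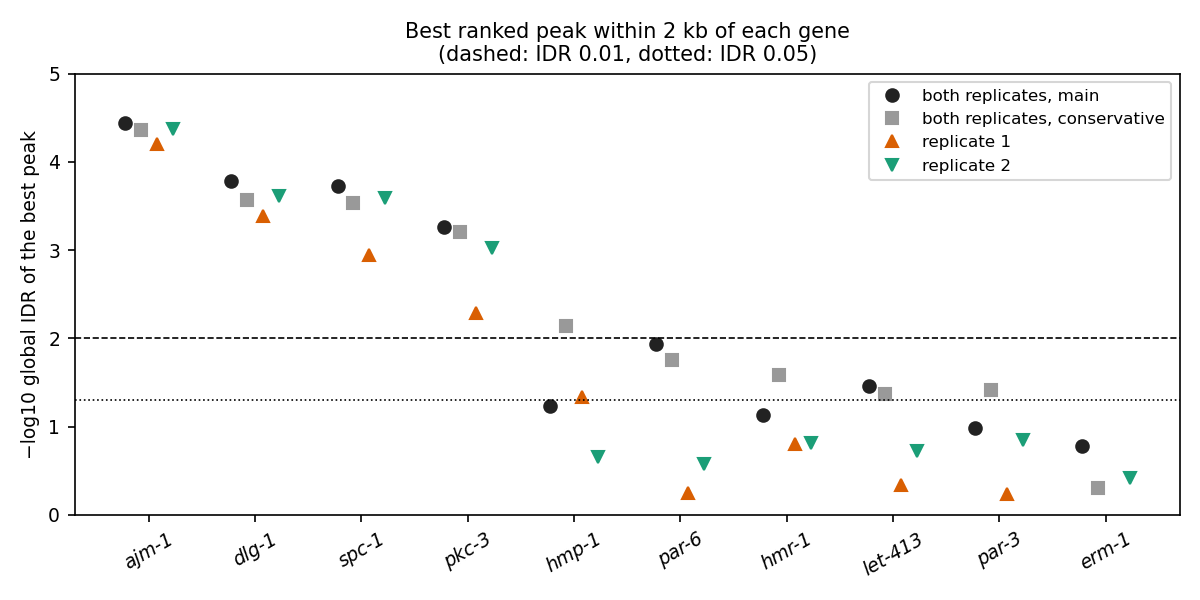
Best ranked peak of each of the 10 genes in 4 ranked lists, as −log10 of the global IDR (vertical axis, higher is more repeatable), with genes ordered by their highest value. Black points are the main list, grey squares the conservative list, orange triangles replicate 1 and green triangles replicate 2, the dashed line is an IDR of 0.01 and the dotted line 0.05. ajm-1, dlg-1, spc-1 and pkc-3 are above the dashed line in all 4 lists, hmp-1 in the conservative list, and erm-1 has no replicate 1 point.

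Ordered by their best main-list IDR, the genes ran ajm-1, dlg-1, spc-1, pkc-3, par-6, let-413, hmp-1, hmr-1, par-3 and erm-1. The leading 4 kept this order in both replicates and in the conservative ranked list. The order of the others changed from list to list, and 2 replicates give only a poor estimate of their spread. At an IDR of 0.05 in the main ranked list, 6 of the 10 genes had a peak, let-413 and par-6 being the additions, against 33.1% of all genes. At 0.1 there were 8, with hmr-1 and hmp-1 added, against 43.2% of all genes. The 10 genes are long, and ajm-1, spc-1 and pkc-3 were included for their peaks, so nothing is read from these differences. The peaks on either side of the threshold were the second pkc-3 peak, just inside at 0.00769, and the best par-6 peak, just outside at 0.0116.

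Summits in a promoter window, from 1000 bp upstream to 200 bp downstream of an annotated 5′ end, occurred at 3 of the 10 genes in the main list, against 6.65% of all genes. These are the genes that the rule names for that property. Only pkc-3 kept such a summit with a window of 500 bp upstream and 100 bp downstream. A peak near a tRNA gene occurred at 2 of the 10 genes, ajm-1 and dlg-1, against 2.52% of all genes. The other 8 genes had no annotated tRNA gene in the gene or within 2 kb. Because the strongest ajm-1 peak was a reason for including ajm-1, and the 10 genes are long, nothing is read from the tRNA count against all genes. By chromosome, all 3 genes on X had a peak, against 18.6% of all genes on X, and none of the 3 on I had one, against 23.5% of all genes on I. Of those on X, ajm-1 and spc-1 were included for a peak in this list, and the dlg-1 peak stood in a tRNA gene past its 3′ end. Nothing is therefore read from the difference between chromosomes.

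Replicates held the peaks to different extents. At 4 of the 10 genes a peak was shared by both replicates' own lists, with an overlap of at least 50% of the shorter peak, against 6.84% of all genes. Of the 9 main-list peaks, 5 were in both replicates' lists, against 29.2% of all nuclear main-list peaks. Another 3 were in replicate 2 only, none in replicate 1 only and 1 in neither. The 5 shared peaks were the strongest at ajm-1, the peak at dlg-1, the upstream and the nearer downstream peak at spc-1, and the upstream peak at pkc-3. Those of ajm-1 and pkc-3 and the upstream one of spc-1 are the promoter summits for which these genes were included. Nothing is therefore read from the difference to the shares over all genes or peaks. Replicate 1 has the shorter list. How deeply either replicate was sequenced is unknown here, since no counts come with the lists.

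**Figure D4:**
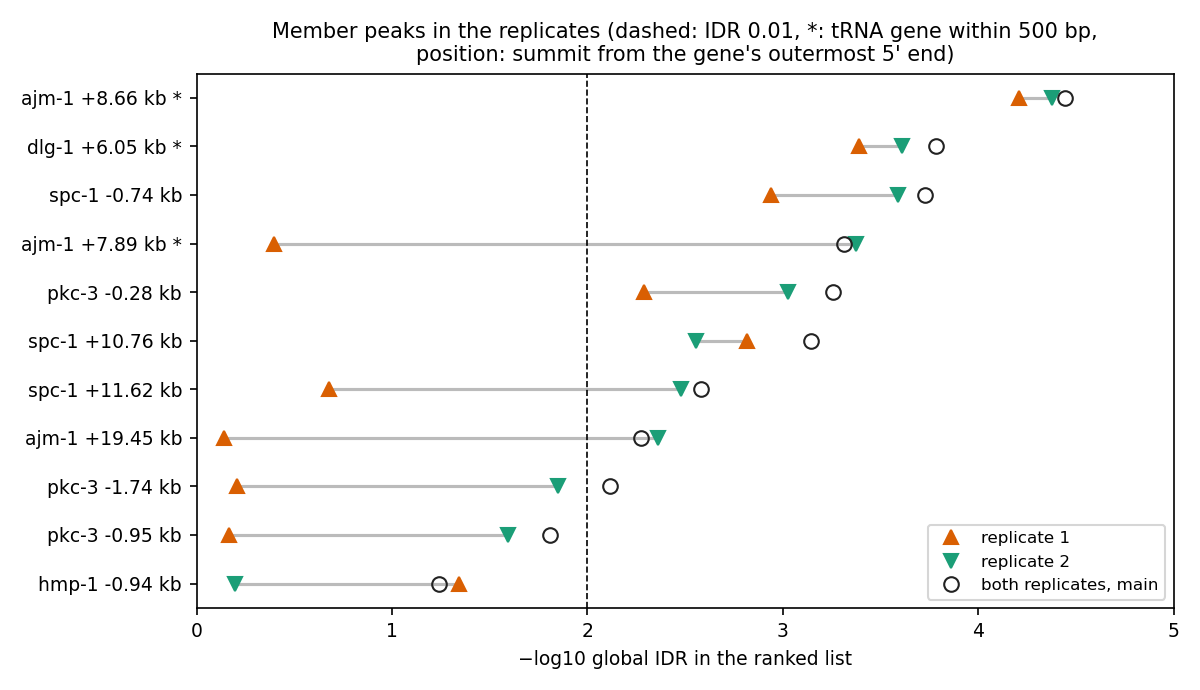
IDR of every peak of the 10 genes that passed the threshold in the main or conservative list, as −log10 of the global IDR (horizontal axis), in replicate 1 (orange), replicate 2 (green) and the main ranked list (open circles). Rows are peaks, named by gene and summit distance from the outermost 5′ end, an asterisk marks a tRNA gene within 500 bp, and the dashed line is an IDR of 0.01. In 5 rows both replicates are past the line, in 3 rows replicate 2 only, and in 3 rows neither.

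The sequences at the summits had little in common in the short motifs searched, on both strands, in 151-base windows. A match is a description of letters and not a binding site. The GA repeat GAGAGA occurred in 3 of the 9 main-list windows of the set, namely the strongest at ajm-1, the upstream one at pkc-3 and the nearer downstream one at spc-1, and in 20.2% of all 3187 windows. The B box is a promoter element inside tRNA genes. A form of its core, GTTCGANNC, occurred in the dlg-1 window and in 13.4% of all windows, being in 68.4% of those near tRNA genes and 4.24% of the others. This string fixes a base at which the usual B box consensus allows A or G, so windows without it may still hold a B box. H08J11.t1 and H08J11.t3, under the middle and strongest ajm-1 summits, hold GTTCAAATC, which has A at that base and fits the consensus. The wider form was not counted over all windows. The GC box GGGCGG occurred in the upstream pkc-3 window and in 8.85% of all. The GATA motif GATAAG was in 0 of the 9 windows and in 5.62% of all. The E-box CACGTG was also in 0 of the 9, with 5.71% of all windows. The other E-box searched, CAGCTG, was in 0 of the 9 and in 4.93% of all. In the pkc-3 window, the only one of the 9 with more than 1 of these motifs, the matches do not overlap. The G and C share of the 9 windows ran from 36.4% at the second pkc-3 peak to 60.9% at the nearer downstream spc-1 peak, against a median of 46.4% over all windows. It was 57.0% in the window upstream of spc-1, 50.3% in that upstream of pkc-3 and 43.0% at the strongest ajm-1 summit.

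The promoter peaks nearest in signal to those of the set were found among 1266 peaks with a promoter summit in the main list. Likeness here means only signal in that list. The ajm-1 peak, at 303, lay between those of spe-9, at 305, and F28H6.7, at 301, both near tRNA genes like the ajm-1 peak. The spc-1 peak, at 189.6, lay between those of pygl-1, at 189.8 and near a tRNA gene, and T02E1.2, at 189.5. The pkc-3 peak, at 153.7, lay between a peak of spe-9 and C17D12.5, at 153.7 and near a tRNA gene, and that of eel-1, at 153.5.

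A further 30 genes of junctions, polarity and the spectrin skeleton, listed with earlier results of these data known, had a main-list peak within 2 kb in 12 cases, or 40.0%, against 19.1% of all protein-coding genes. These genes are long too, with a median span of 7764 bp, and of the 19 with at least 4143 bp, 8 had a peak, against 26.8% of all genes of that length. The count was 10 in the conservative list, against 16.9% of all protein-coding genes. It was 6 in replicate 1's list, against 8.38%, and 9 in replicate 2's list, against 13.4% of all protein-coding genes. Their 16 main-list peaks had a median signal of 113. Of the 16, 4 were in both replicates' lists, against 29.2% of all nuclear main-list peaks, 6 were in neither, and 9 were nearer to the 5′ end of another gene. The 12 genes were jac-1, sax-7, clc-3, clc-4, nsy-4, par-1, par-5, lgl-1, crb-1, pac-1, unc-70 and nfm-1. As the 30 genes are long and were listed with earlier results known, nothing is read from their differences to all genes.

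In this wider list, the strongest peak was at unc-70, which encodes the beta-spectrin partner of SPC-1. That peak, chrV:6888947-6889056, had a signal of 313 and lay in an intron within 500 bp of the snoRNA gene K11C4.6. The peak at clc-3, which encodes a claudin-like protein, had a signal of 310 and lay near the tRNA-Thr gene ZK563.t1, in an intron of ZK563.2. The peak at nfm-1, the worm's merlin gene, had a signal of 249 and lay at −509 bp, near the tRNA-Ser genes F42A10.t1 and F42A10.t2.

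Other peaks of the wider list stood near the 5′ end of the gene itself or of a neighbour. par-5, a 14-3-3 gene of the polarity pathway, had a peak of signal 145 at −169 bp, in a promoter window that M117.3 shares. par-5 also had a peak of 143 in its 3′ UTR, held by both replicates. sax-7, the worm's L1CAM gene, had a peak of 104 at −23 bp from an internal 5′ end, held by neither replicate. lgl-1, the homologue of lethal giant larvae, had peaks of 155 and 93.3, each nearer to the 5′ end of a neighbouring gene. The crb-1 peak, at the gene for the Crumbs protein, had a signal of 120 and lay 1958 bp past the 3′ end, in a promoter window of F11C7.6.

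The remaining peaks of the wider list were weaker than the median of the main list in all but 1 case. par-1, a polarity kinase gene, had intronic peaks of 104 and 93.8, the weaker at −264 bp from the 5′ end of AH10.4. jac-1, the worm's p120-catenin gene, had 87.4 in coding sequence, and pac-1 had 91.8 at 251 bp past its 3′ end, in an intron of ZC21.8. The clc-4 peak had 98.2 and lay 1878 bp past the 3′ end of clc-4, in coding sequence of sma-9. The other unc-70 peak had 106 at −1789 bp. The exception was the peak at nsy-4, a claudin-like gene, with 132 at 751 bp past its 3′ end, in an intron of nhr-236. The other 18 genes, among them hmp-2 for beta-catenin, vab-9, cdc-42, par-2 and sma-1, had no main-list peak.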

How the data were processed

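ChIP-seq peak lists of 2 biological replicates in 1 group were analysed. Per the text deposited with the samples, 4 lists hold all peaks ranked by IDR and 4 hold those past a threshold, made on assembly ce11 against a control alignment. Each replicate had 1 list of each kind, and the others came from both replicates' alignments together. Names and versions of the peak caller and aligner, and the IDR threshold used, were not given in the sources used here. As deposited, the signal is a value set by the peak caller against the control, on a scale of its own in each list. Scores, as deposited, are whole numbers derived from the IDR and were at least 830 in the thresholded lists. The deposited −log10 of the global IDR gave the IDR of each ranked peak. The authors' ranked lists of both replicates hold 4 further columns of input signals without a sample name, which were not used here. The lists give no read counts, so depth and the precision it gives are unknown.

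The longer thresholded list of both replicates was taken as the main list, and mitochondrial peaks were left out. Peaks were placed on genes, tRNA genes and 29784 annotated 5′ ends of the Ensembl release 115 annotation, with symbols from RefSeq by WormBase identifier for 95.4% of genes. Sequence came from the RefSeq genome of WBcel235. A tRNA gene counted as near within 500 bp of a summit, and replicate peaks as shared at an overlap of at least 50% of the shorter peak. Each count is given beside the same count over all protein-coding genes, and no test was run, because there is 1 group and the genes were chosen on these peaks. The members and lists were chosen with earlier results of these data known. Named genes were the members, tRNA genes within 500 bp of their summits, the gene with the nearest 5′ end, the wider list's genes with a main-list peak, and the promoter peaks next above and below in signal. Other windows, lists, overlaps and IDR thresholds were tried as alternatives. The code that counts overlaps was checked on simulated intervals, which is no test of the counts against chance. Python 3.11.15, numpy 2.4.6, pandas 2.3.3 and matplotlib 3.10.9 were used.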

Additional observations from a re-analysis of the deposited data

How the results depend on the processing

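Of 40 alternatives run, 31 left a count or share within 1.5 times its value as reported and 9 did not. With the gene body alone, without flanks, 1 of the 10 genes, ajm-1, had a main-list peak, as did 6 of the 30 wider-list genes and 8.87% of all protein-coding genes. With 5000 bp on either side the wider list had 19 genes and all genes 29.4%. Leaving out each replicate in turn gave 8.38% to 13.4% of all genes and 6 to 9 genes of the wider list, the lower values being those of replicate 1 alone, and 4 of the 10 genes each time. A promoter window of 500 bp upstream and 100 bp downstream left a summit at 1 of the 10 genes, pkc-3. An IDR threshold of 0.1 gave 8 of the 10 genes a peak. With peaks near tRNA genes left out, 3 of the 10 genes kept one, dlg-1 being lost, as did 10 of the 30 wider-list genes and 17.0% of all protein-coding genes. When a gene's outermost 5′ end alone was used, 2 of the 10 genes had a promoter summit, ajm-1 being lost.

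No paired analysis was possible because there is 1 group of 2 replicates and no test. The replicates differ in list length, with 1191 nuclear peaks in replicate 1 and 2083 in replicate 2, and read depth is unknown, so a peak missing from replicate 1 cannot be told apart from a peak below its detection limit. IDR was computed by the authors, and what was compared within a single replicate was not given in the sources used here.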
